A study of Mus musculus with 27 samples.

Results

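Ccr2 and Cx3cr1 encode chemokine receptors that mark opposite ends of the path from blood monocyte to intestinal macrophage. Both genes were read off a panel of 67 monocyte and macrophage genes counted on the NanoString nCounter, chosen by name as the rows Ccr2 and Cx3cr1, together with their log2 ratio in each lane. They are 2 of the 57 panel genes with values, and both had a value in all 27 lanes, 1 lane per mouse. Wild-type C57BL/6 monocytes (CD11b+Ly6C+, from bone marrow, CD45.2+) had been injected into C57BL/6 CCR2-/- recipients carrying CD45.1, and 100 CD64+ cells of donor origin were sorted per recipient small intestine, with 1, 2 or 5 days between transfer and sort. Manipulated recipients (5, 4 and 4 mice at days 1, 2 and 5) had their small intestine handled surgically 1 day before transfer, with ketamine and xylazine anaesthesia, an incision and Novalgin in the drinking water. Non-manipulated recipients (5, 5 and 4 mice) had no surgery, and no sham-operated group was among these samples. Handling, anaesthesia, incision and drug therefore cannot be told apart in these counts. The study reports that sham surgery, in which the gut was not handled, caused no gut inflammation. All recipients of both arms lacked CCR2, while the counted donor cells carried the wild-type gene. The labels give wild-type donors for every sample. The study's methods also name donors with 1 Cx3cr1 allele replaced by GFP for differentiation experiments, which would bear on Cx3cr1 if any sample here came from them. Mice were pooled from several experiments, and which mouse belonged to which experiment is not given.

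CCR2 binds the chemokines CCL2, CCL7 and CCL8, and Ly6C+ monocytes use it to leave the bone marrow and to enter inflamed tissue. CX3CR1 binds fractalkine, the product of Cx3cl1, and is found at high levels on resident macrophages of the intestinal wall. As monocytes mature in the healthy gut they are known to lose Ly6C and CCR2 and to gain MHC class II and CX3CR1, so the balance of both receptors is commonly read as a stage of maturation.

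Each gene was read with 1 probe of 100 bases, at positions 2966 to 3065 of the Ccr2 transcript and 2697 to 2796 of the Cx3cr1 transcript. Both genes lie on mouse chromosome 9. PU.1, a transcription factor of the ETS family encoded by Spi1, is a central regulator of the monocyte lineage, and the 2 promoters are shown as background. Each is the run of 250 bases before the transcription start in RefSeq (GRCm38.p6), 5′ to 3′ on the strand of the gene, with GGAA or its complement TTCC, the core bound by ETS factors, in capitals. The Ccr2 promoter lies at chr9:124101933-124102182 on the plus strand and the Cx3cr1 promoter at chr9:120068297-120068546 on the minus strand.
Ccr2: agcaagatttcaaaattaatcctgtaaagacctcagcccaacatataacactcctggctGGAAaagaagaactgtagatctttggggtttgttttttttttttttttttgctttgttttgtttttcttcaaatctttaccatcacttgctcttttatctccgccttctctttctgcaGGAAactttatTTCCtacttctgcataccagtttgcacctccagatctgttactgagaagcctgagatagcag
Cx3cr1: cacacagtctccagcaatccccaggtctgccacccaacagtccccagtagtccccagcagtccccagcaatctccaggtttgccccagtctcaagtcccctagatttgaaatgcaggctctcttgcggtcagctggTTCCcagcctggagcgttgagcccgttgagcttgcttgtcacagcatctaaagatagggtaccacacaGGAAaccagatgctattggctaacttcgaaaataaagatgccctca
The Ccr2 promoter held 3 such matches and the Cx3cr1 promoter 2. Matches of GGAA on either strand were found in 93.4% of 32851 mouse promoters of the same length, with a median of 3, so both counts are ordinary. The longer motif GAGGAA, searched on both strands and containing GGAA, was in neither promoter and in 23.3% of all promoters. No binding was measured here.

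Scaled counts are used for levels. For these, the barcode count was divided by the geometric mean of the 3 housekeeping genes with values in that lane (Actb, Gapdh and Rpl19) and brought back to the size of a count with the average housekeeping mean of the series. The total count of the 57 genes ran from 597997 to 1347007 per lane, the housekeeping geometric mean from 10838 to 41968, and the background (mean plus 2 SD of the 5 negative controls) from 14.9 to 49.8 counts. Lanes of mice 3 and 4 in every group, 12 in all, held values that were multiples of a constant, and results are therefore also given for those lanes and the other 15 apart. Ccr2 made up 0.44 to 3.69% of all panel counts in manipulated and 2.00 to 12.1% in non-manipulated recipients, and its counts were at least 182 times the background of their lane. Cx3cr1 was far closer to the background, at 1.66 to 62.1 times it in manipulated and 9.32 to 99.0 times in non-manipulated recipients. In 9 lanes, 8 of them manipulated, Cx3cr1 was under 10 times background, and it was below background in 0 lanes. All 5 manipulated day 1 lanes were among the 9, at 2.19 to 5.55 times background. Counts of the 2 genes cannot be set against each other as transcript numbers, because each went through its own primers, pre-amplification and probe. Only differences of their ratio between lanes are compared.

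Ccr2 was lower in donor cells from manipulated recipients at all 3 days, 2.98-fold to 3.31-fold. At day 1 it stood at 17652, 4899, 38699, 34876 and 6354 scaled counts in manipulated mice 1 to 5, against 67388, 111982, 58324, 56347 and 44778 in non-manipulated mice 1 to 5. Every manipulated mouse lay below every non-manipulated one, with mice 3 and 4 the highest of the manipulated arm. At day 2 manipulated mice 1 to 4 had 10331, 16812, 39377 and 31683, against 65444, 56846, 68140, 56506 and 118573 in non-manipulated mice 1 to 5. The groups were again apart, and non-manipulated mouse 5 was the highest lane of the series. At day 5 manipulated mice had 8756, 11127, 15852 and 20229, against 47866, 44548, 54222 and 27519 in non-manipulated mice. The groups did not overlap here either, although non-manipulated mouse 4 came close to manipulated mouse 4.

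**Figure D1:**
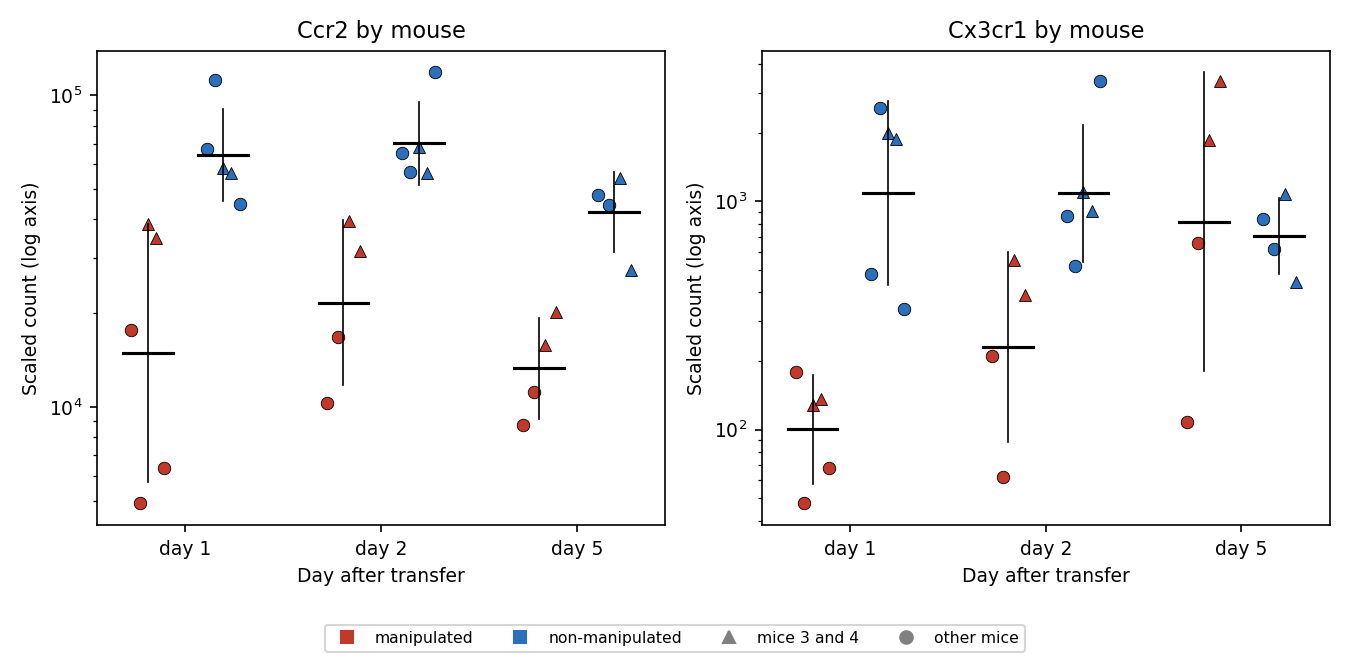
Scaled counts of Ccr2 (left) and Cx3cr1 (right) on log axes for each of the 27 mice, by day after transfer, with manipulated recipients in red and non-manipulated ones in blue. Bars are geometric means, whiskers 1 SD on the log scale, triangles mice 3 and 4 and circles the other mice. Ccr2 of the manipulated mice lies below that of the non-manipulated mice on each day, while Cx3cr1 does so without overlap at day 1 alone.

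The log2 fold change of Ccr2, manipulated over non-manipulated, was -1.73 ± 0.48 (SE, n = 5 and 5) at day 1, -1.57 ± 0.51 (n = 4 and 5) at day 2 and -1.64 ± 0.53 (n = 4 and 4) at day 5. Adjusted p was 0.00482, 0.0279 and 0.0264 at the 3 days (edgeR quasi-likelihood test, Benjamini-Hochberg over 57 genes), so Ccr2 fell at each of the 3 days. Of all genes, 42.1%, 31.6% and 24.6% passed this test in either direction at days 1, 2 and 5, and 17.5%, 17.5% and 7.02% were lower, so a call in itself was common, less so at day 5. Groups did not overlap, in either direction, for 33.3%, 28.1% and 15.8% of genes. In scaled counts, Ccr2 and H2-Ab1, an MHC class II gene, were lower without overlap at all 3 days, or 3.51% of genes. Lower calls at all 3 days were made for Ccr2 and the interferon-induced chemokine gene Cxcl9, again 3.51%. These 3 day comparisons use separate mice. In cells sorted in bulk, fewer Ccr2-expressing cells and less Ccr2 RNA per cell cannot be told apart.

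The Ccr2 calls depended on the scaling. Scaled by the factors the authors had used, the log2 fold changes were -0.88, -1.09 and -1.29 at days 1, 2 and 5, with adjusted p of 0.295, 0.258 and 0.202 (edgeR), and the groups overlapped at each day. Under that scaling the median of all 57 genes moved to 0.66, 0.40 and 0.85, against -0.08, -0.05 and 0.59 with the housekeeping genes. Relative to the panel median, Ccr2 was at -1.54, -1.50 and -2.14 with the authors' factors and at -1.65, -1.52 and -2.23 with the housekeeping genes, and its share of panel counts did not overlap between arms on any of the 3 days. Rpl19, relative to the housekeeping geometric mean, was higher in manipulated recipients by 0.48, 0.64 and 0.18 on the log2 scale at days 1, 2 and 5. Leaving it out brought the day 2 value of Ccr2 to -1.23 with an adjusted p of 0.0669 (edgeR). The groups then overlapped at day 1 but not at days 2 and 5. In the lanes of mice 3 and 4 the log2 fold changes were -0.64, -0.81 and -1.18 (adjusted p 0.162, 0.128 and 0.0226), and in the other mice -2.95, -2.56 and -2.22 (adjusted p 0.00106, 0.0277 and 0.0378). Leaving out 1 mouse ended the day 2 call for manipulated mouse 1 (adjusted p = 0.0835), manipulated mouse 2 (0.0717) and non-manipulated mouse 5 (0.0631), and the day 5 call for manipulated mouse 1 (0.0700), manipulated mouse 2 (0.0577) and non-manipulated mouse 3 (0.0642), while the day 1 call held without each of the 10 mice.

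Within an arm and over all lanes, Ccr2 did not pass the test between any days, where 1.75% (day 2 against 1), 5.26% (day 5 against 2) and 40.4% (day 5 against 1) of genes passed in manipulated recipients and 14%, 12.3% and 19.3% in non-manipulated ones. Manipulated recipients averaged 20496 ± 15728 (SD, n = 5), 24551 ± 13326 (n = 4) and 13991 ± 5099 (n = 4) scaled counts at days 1, 2 and 5, and their ranges overlapped throughout. Non-manipulated recipients averaged 67764 ± 25996 (n = 5), 73102 ± 25935 (n = 5) and 43539 ± 11409 (n = 4). The lower level at day 5 had a log2 fold change against day 1 of -0.55 ± 0.50 in manipulated recipients (adjusted p = 0.408, though it passed in mice 3 and 4 at -1.03 with 0.0455) and of -0.64 ± 0.50 in non-manipulated ones (adjusted p = 0.433, edgeR), each SE close to the size of the change. Between days 5 and 2 the non-manipulated groups did not overlap, as for 10.5% of genes, with a log2 fold change of -0.75 ± 0.50 (adjusted p = 0.335). The manipulation effect on Ccr2 at day 5 minus that at day 1 was 0.09 ± 0.70 (adjusted p = 0.951, where 19.3% of genes passed), an SE that leaves room for a change of either sign.

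Cx3cr1 took another course. At days 1 and 2 it was far lower in manipulated recipients, and at day 5 manipulated mice other than mouse 1 were within the non-manipulated range or above it. At day 1 manipulated mice 1 to 5 had 180, 47.5, 128, 137 and 68.1 scaled counts, against 479, 2567, 1998, 1885 and 337 in non-manipulated mice 1 to 5. All 5 manipulated mice were below all 5 non-manipulated ones, which themselves fell into a lower pair (mice 1 and 5) and a higher trio. Scaled by the factors the authors had used, the groups overlapped, with manipulated mouse 4 at 403 and non-manipulated mouse 5 at 393. At day 2 manipulated mice 1 to 4 had 210.5, 62.0, 552 and 389, against 860, 522, 1096, 911 and 3374 in non-manipulated mice 1 to 5. Manipulated mouse 3 just exceeded non-manipulated mouse 2, so the groups met at 1 point. They overlapped with the authors' factors and without Rpl19 as well, and did not overlap as a share of panel counts. At day 5 manipulated mice had 108, 656, 1854 and 3365, against 842, 618, 1079 and 444 in non-manipulated mice. Manipulated mice 3 and 4 were above all non-manipulated mice, mouse 2 among them and mouse 1 below them, a 31.0-fold spread within 1 group.

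The log2 fold change of Cx3cr1, manipulated over non-manipulated, was -3.70 ± 0.79 at day 1 (adjusted p = 0.000661, edgeR) and -2.16 ± 0.81 at day 2 (adjusted p = 0.0419), so Cx3cr1 fell at both days, 4.46-fold at day 2 and further at day 1. At day 5 it was 1.00 ± 0.81 with an adjusted p of 0.387, and no change passed the test. The shares of genes that passed or did not overlap at these days are those given for Ccr2. The day 1 call held under each of the 14 other settings (log2 fold changes from -4.02 to -3.06) and without each of the 10 mice. Its size rests on manipulated lanes close to the floor, at 2.19 to 5.55 times background. The day 2 call was lost without non-manipulated mouse 5 (-1.48, adjusted p = 0.159), the animal with 3374 scaled counts, and without non-manipulated mouse 3 (adjusted p = 0.0538) or manipulated mouse 1 (0.111), 2 (0.114) or 4 (0.0742). It was lost too with the mouse number as a block (-2.23, adjusted p = 0.0636). It was also lost with the authors' factors (-1.75, adjusted p = 0.144) and without Rpl19 (-1.85, adjusted p = 0.0672). Relative to the panel median the day 2 value was -2.15 and -2.10 under these scalings, and -2.10 with all 3 housekeeping genes.

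Between days, Cx3cr1 rose in manipulated recipients. Day 5 stood over day 1 by a log2 fold change of 3.74 ± 0.81 (13.3-fold, n = 4 and 5, adjusted p = 0.00135, edgeR), where 40.4% of genes passed and 22.8% were higher. The groups still overlapped, because day 5 mouse 1 with 108 scaled counts lay inside the day 1 range. All 5 day 1 lanes were at only 2.19 to 5.55 times background. In the lanes of mice 3 and 4 the log2 fold change of day 5 over day 1 was 4.302 (adjusted p = 0.000974, edgeR). In the other mice it was 1.95 and did not pass (adjusted p = 0.175). The steps in between, day 2 over day 1 (1.44 ± 0.76, adjusted p = 0.282) and day 5 over day 2 (2.30 ± 0.84, adjusted p = 0.0774), did not pass, at days where 1.75% and 5.26% of genes did. Without manipulated day 5 mouse 1 the second step was 2.69 with an adjusted p of 0.0281. In non-manipulated recipients the day 5 over day 1 value was -0.96 ± 0.77 (adjusted p = 0.441, where 19.3% of genes passed), and averages were 1453 ± 990 (SD, n = 5), 1353 ± 1149 (n = 5) and 746 ± 276 (n = 4) scaled counts at days 1, 2 and 5. Manipulated recipients averaged 112 ± 53.7 (n = 5), 303 ± 213 (n = 4) and 1496 ± 1444 (n = 4).

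The difference between arms itself changed with time for Cx3cr1. The manipulation effect at day 5 minus that at day 1 was 4.70 ± 1.13 on the log2 scale (adjusted p = 0.00458, edgeR), a test that 19.3% of genes passed and 12.3% in the upward direction, and it shares its mice with the comparisons above. It held under the 4 other scalings, with values from 4.19 to 4.87, and without each of the 18 mice, with values from 3.92 to 5.09. It was 5.65 (adjusted p = 0.00241) in the lanes of mice 3 and 4 and 2.58 (adjusted p = 0.293) in the other mice. For the day 5 comparison of arms the sign differed between these sets, at 1.78 (adjusted p = 0.0267) in mice 3 and 4 and -0.93 (adjusted p = 0.735) in the other mice, with 2 mice per group in each. Whether the set or the experiment behind it has a part in this was not tested.

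**Figure D2:**
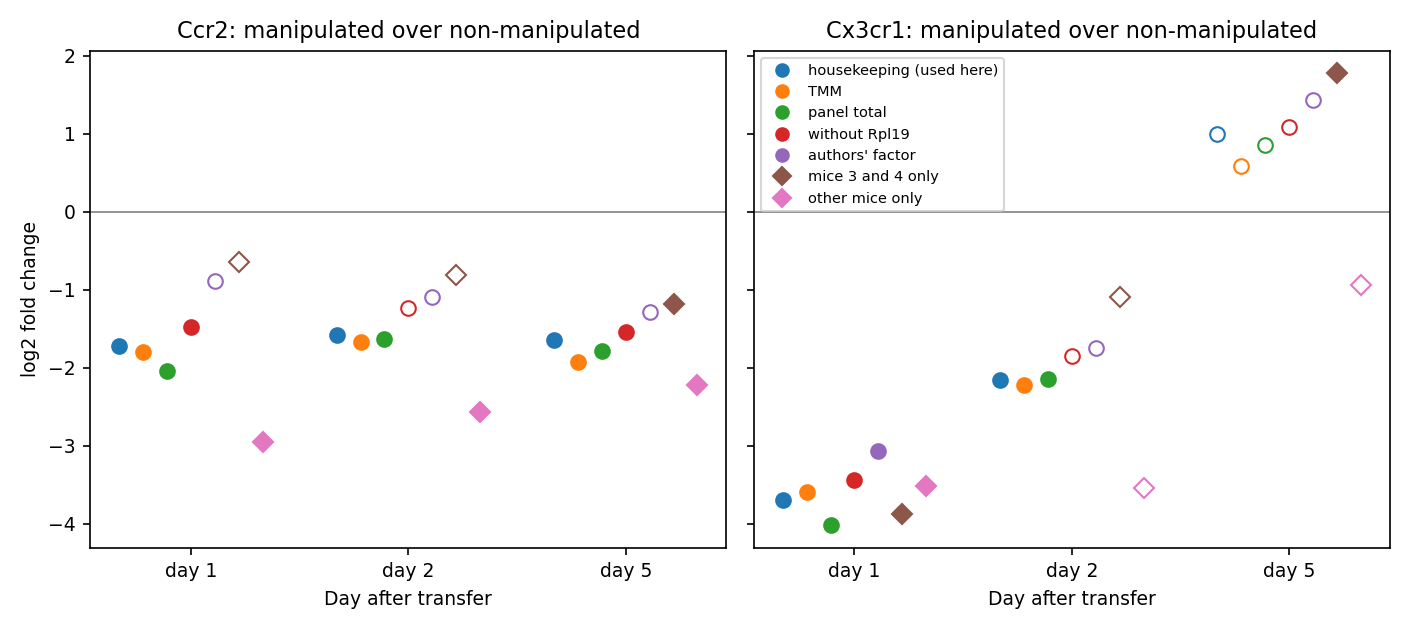
Log2 fold change, manipulated over non-manipulated, of Ccr2 (left) and Cx3cr1 (right) at each day under 5 scalings (circles) and in the 2 sets of lanes (diamonds). Filled symbols have an adjusted p below 0.05 and open ones do not. Ccr2 is below 0 in every case shown, from -2.95 to -0.64, and Cx3cr1 at day 5 is below 0 in the mice other than 3 and 4 alone.

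The ratio of both genes within a lane does not depend on the scaling. The log2 ratio of Ccr2 to Cx3cr1 was 6.61, 6.65, 8.23, 7.98 and 6.53 in manipulated mice 1 to 5 at day 1, against 7.13, 5.45, 4.87, 4.90 and 7.05 in non-manipulated mice 1 to 5. Non-manipulated mice 1 and 5 lay within the manipulated range and the other 3 below it. At day 2 it was 5.61, 8.06, 6.15 and 6.34 in manipulated mice 1 to 4, against 6.25, 6.77, 5.96, 5.95 and 5.13 in non-manipulated mice 1 to 5, with most mice of both arms mixed together and manipulated mouse 2 above the rest. At day 5 it was 6.32, 4.08, 3.09 and 2.59 in manipulated mice, against 5.83, 6.17, 5.65 and 5.95 in non-manipulated mice. Manipulated mice 2 to 4 had the lowest ratios of the 27 lanes, while mouse 1 stayed just above the 4 non-manipulated mice.

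Averaged over mice, the log2 ratio in manipulated recipients was 7.20 ± 0.83 (SD, n = 5), 6.54 ± 1.06 (n = 4) and 4.02 ± 1.65 (n = 4) at days 1, 2 and 5, and in non-manipulated ones 5.88 ± 1.13 (n = 5), 6.01 ± 0.59 (n = 5) and 5.90 ± 0.22 (n = 4). Day 5 minus day 1 was -3.18 (SE 0.91) in manipulated recipients, a 9.06-fold drop in Ccr2 relative to Cx3cr1. Those 2 groups did not overlap, with a gap of 0.21 between the lowest day 1 and the highest day 5 mouse, as for 27.8% of the 1596 pairs of panel genes. Cx3cr1 was close to background in all 5 of these day 1 lanes (2.19 to 5.55 times) and in day 5 mouse 1 (2.26 times). In non-manipulated recipients day 5 minus day 1 was 0.02 (SE 0.52) with overlapping groups, where 26.6% of gene pairs did not overlap. The change in manipulated minus that in non-manipulated recipients was -3.20 (SE 1.04), and it was -6.18 in mice 3 and 4 and -0.85 in the other mice. In the other mice the mean ratio was lower at day 5 in both arms, with differences of -1.40 in manipulated and -0.55 in non-manipulated recipients. The ratio carries Cx3cr1, which rose between these days in manipulated recipients, and Ccr2, which had no call there. The ratio is described without a test.

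Between arms the ratio differed by 1.32 (SE 0.63) at day 1, 0.53 (SE 0.59) at day 2 and -1.88 (SE 0.83) at day 5, manipulated minus non-manipulated. The groups overlapped each time, whereas 35.3%, 29.4% and 18.9% of gene pairs did not overlap at these days. The 2 sets of lanes differed in size. The drop of day 5 against day 1 in manipulated recipients was -5.26 in mice 3 and 4 and -1.40 in the other mice, with 2 or 3 lanes per group. The day 1 difference between arms was 3.22 in mice 3 and 4 and 0.05 in the other mice.

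**Figure D3:**
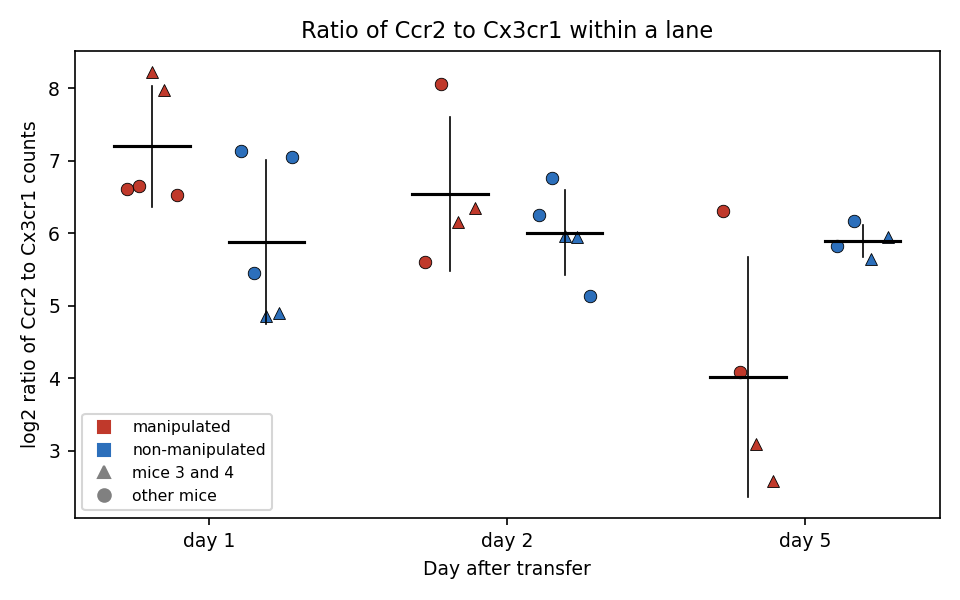
Log2 ratio of Ccr2 to Cx3cr1 counts within each lane, by day after transfer, manipulated recipients in red and non-manipulated ones in blue. Bars are means, whiskers 1 SD, triangles mice 3 and 4 and circles the other mice. The manipulated group moves to 4.02 at day 5 with a wide spread, while the non-manipulated means stay between 5.88 and 6.01.

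Ordered by geometric mean, Ccr2 was highest in non-manipulated recipients at day 2, then at day 1 and day 5, followed by manipulated recipients at day 2, day 1 and day 5. Cx3cr1 was highest in non-manipulated recipients at day 1 and day 2, then in manipulated recipients at day 5, non-manipulated ones at day 5, and manipulated ones at day 2 and day 1. Each neighbouring pair in both orders overlapped in its range of mice, and so did each pair in the order of the ratio, which ran from manipulated day 1 at the top to manipulated day 5 at the bottom.

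In scaled counts, mice of the same group with more Ccr2 tended to have more Cx3cr1. With the group means removed, the log2 scaled counts correlated with Pearson r = 0.622 (p = 0.00012) and Spearman rho = 0.745 (p = 3e-05) over 27 lanes, by a two-sided permutation test within groups with 100000 resamples, the only relation of this kind computed. Pearson r was 0.652 without the 2 lanes farthest from the median. It was 0.640 when scaled by the panel total and 0.715 with the authors' factors, each of which both genes share within a lane. In the other mice r was 0.695 (n = 15, p = 0.0176), and in mice 3 and 4 it was 0.952 (n = 12, p = 0.0935), where groups of 2 lanes allow few arrangements. From mouse to mouse within a group, the scaled counts of both receptor genes were thus higher or lower together in these lanes. Both genes share the divisor of their lane, a tie that the permutation breaks. The p-values therefore cannot tell a shared divisor from a relation between the genes. Other gene pairs were not correlated in this way, so whether this is particular to these 2 genes was not tested.

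**Figure D4:**
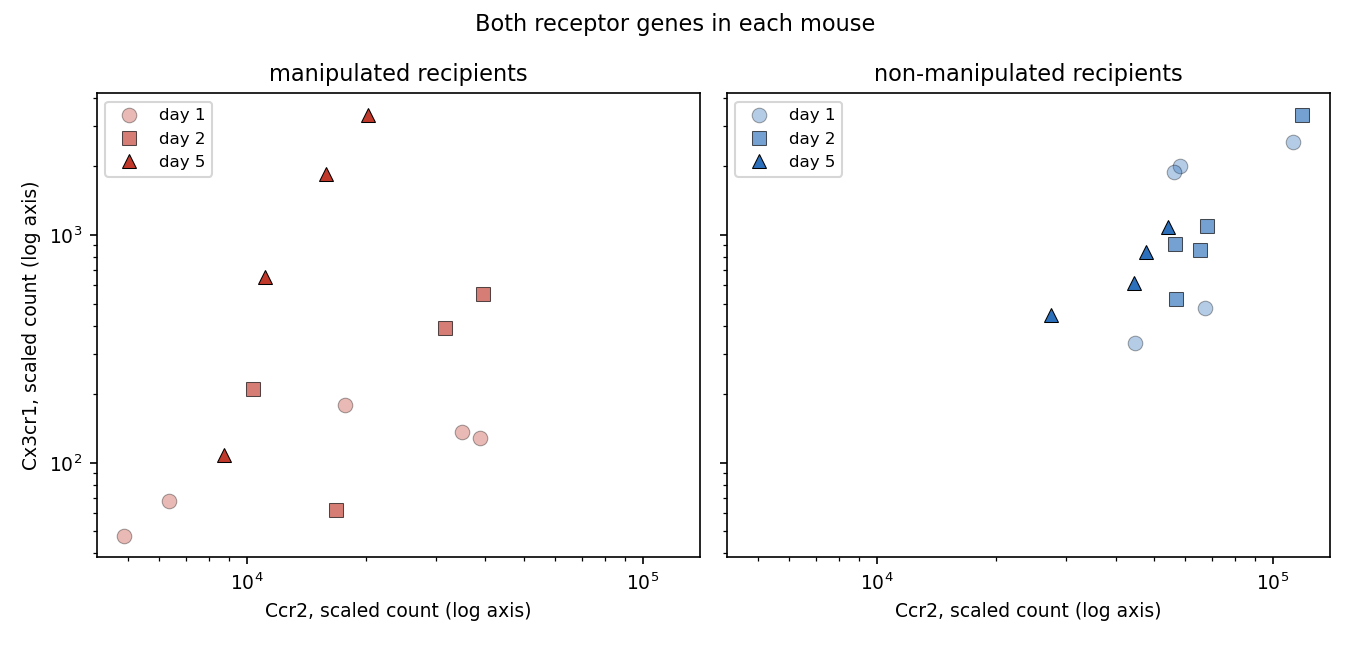
Scaled count of Cx3cr1 against that of Ccr2, both on log axes, for manipulated (left) and non-manipulated (right) recipients, with days shown by symbol and shade. In manipulated recipients at day 5, 3 of 4 mice lie above all other mice of that arm in Cx3cr1 while their Ccr2 is at or below 20229, and the non-manipulated days lie along 1 band.

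Over all 27 lanes, the gene most like Ccr2 was Itgax, which encodes the integrin CD11c (Pearson r = 0.836, Spearman rho = 0.794), and Cxcl9 was also among the closest (0.688 and 0.731). Cx3cr1 itself was at 0.668 and 0.653. The gene least like Ccr2 was Cxcl1, which encodes a neutrophil-attracting chemokine (-0.720 and -0.733). For Cx3cr1 the closest gene was Csf1r, the receptor for the macrophage growth factor CSF1 (0.858 and 0.921), then Il10ra, a chain of the IL-10 receptor (0.739 and 0.720), and Itgax (0.705 and 0.696). The least like was the cytokine gene Il6 (-0.751 and -0.670). These are descriptions over lanes that share their scaling and the 6 groups.

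The ligands of CCR2 were mostly higher where its own transcript was lower. Of the 3 ligand genes, 2 were higher and 0 lower in manipulated recipients at each day, with a median log2 fold change of 2.80, 1.97 and 1.55 at days 1, 2 and 5, beside -0.08, -0.05 and 0.59 for all 57 genes, of which 24.6%, 14% and 17.5% were called higher. At day 5 the count of higher ligands was 1 to 3 over the scalings. Ccl2 rose by 2.80 ± 0.37 at day 1, 1.97 ± 0.37 at day 2 and 1.55 ± 0.39 at day 5 (adjusted p at most 0.0048, edgeR), and did so under all 5 scalings. Ccl7 rose by 7.02 ± 0.93 at day 1 and 3.03 ± 0.79 at day 2. Ccl8 rose at day 5 alone, by 1.32 ± 0.34, under 4 of 5 scalings. The ligand of CX3CR1, Cx3cl1, was on the panel but blank in every lane. Of the other chemokine receptor genes, the gut-homing receptor gene Ccr9 fell at day 2 by 2.18 ± 0.77 (adjusted p = 0.0337), under 3 of 5 scalings, and passed at neither of the other days, Ccr7, which guides cells to lymph nodes, passed on none of the 3 days, and Ccr8 was blank.

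The rise of Cx3cr1 between days 1 and 5 in manipulated recipients came with a rise of other macrophage genes. Of the 8 measured mature intestinal macrophage genes, 5 rose and 0 fell, with a median log2 fold change of 2.05 beside 0.17 for all genes. Of all 57 genes, 22.8% rose in this comparison. Among them were H2-Ab1 (2.83 ± 0.78), Adgre1, which encodes a macrophage surface receptor (2.51 ± 0.73), and Csf1r (1.56 ± 0.46). With the authors' factors 0 of the 8 passed, where 2 of the 57 genes were higher and 12 lower. In non-manipulated recipients 0 of the 8 passed between these days (median 0.24 beside -0.07), where 19.3% of all genes passed. H2-Ab1 was at 2.06 ± 0.76 there (adjusted p = 0.0556, edgeR). Of the 6 Ly6C+ monocyte genes, 5 fell and 1 rose in manipulated recipients (median -2.99), among them Trem1, an activating receptor of myeloid cells (-3.14 ± 0.58), and the adhesion receptor gene Cd44 (-3.13 ± 0.69), and the 5 falls were found under all 5 scalings, while the 1 rise, of Cd14, was found under 1. In non-manipulated recipients 2 fell and 1 rose (median -1.73), with 1 to 4 lower and 0 to 1 higher over the scalings. Of all genes, 17.5% fell in manipulated and 8.77% in non-manipulated recipients between these days. Differences between the arms in these counts were not tested.

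At day 1, when Cx3cr1 was at its lowest in manipulated recipients, 3 of the 8 macrophage genes were also lower and 0 higher (median -0.84 beside -0.08), namely Itgax (-2.38 ± 0.69), H2-Ab1 (-2.08 ± 0.73) and Csf1r (-1.10 ± 0.44), with 0 to 3 lower and 0 to 1 higher (Mrc1) over the 5 scalings, and 17.5% of all genes lower. At day 5 none of the 8 passed in either direction, where 24.6% of all genes did. The cytokine gene Il10, whose product restrains gut macrophages, was higher in manipulated recipients at day 1 by 2.06 ± 0.42 (adjusted p = 0.0004) and at day 2 by 1.29 ± 0.43 (adjusted p = 0.0279), both under all 5 scalings. Tgfb1, another regulatory cytokine gene, was lower at day 2 by 0.84 ± 0.28 and at day 5 by 0.82 ± 0.29, each under 3 of 5 scalings. Of the markers of other cells, 1 dendritic cell gene was measured (Ccr7), and 0 genes for lymphocytes (B, T and NK cells), granulocytes (neutrophils and eosinophils), epithelial, stromal or endothelial cells, so carry-over of such cells was not tested. Nor does the Ccr2 probe check the sort against recipient cells, since the part of Ccr2 deleted in the recipients is not given in the sources used here.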

How the data were processed

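Monocyte-derived cells of 27 mice were counted on the nCounter after reverse transcription and target pre-amplification. Samples were grouped by title and day. The free-text description, which names day 1 for every sample, was not used. In the table of raw values, 14 lanes held whole-number counts as deposited by the authors. The lane of manipulated day 1 mouse 5 held even counts only and was divided by 2. The deposited values of 12 lanes (mice 3 and 4) were taken to be expected counts (not whole, made by the authors), being whole multiples of 4/3 within 0.001, and were divided by it. The reason for both multipliers is not given. The normalized table held a score that the authors had scaled to housekeeping genes, used as an alternative. Of 67 genes, 10 were blank in every lane and 57 were tested.

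All 27 lanes entered 1 edgeR 4.0.16 model (quasi-likelihood F test, two-sided, R 4.3.3) with 1 coefficient per group (6 groups) and the housekeeping geometric mean as library size (21 residual degrees of freedom, common biological coefficient of variation 0.685). P-values were adjusted by Benjamini-Hochberg over 57 genes, with a threshold of 0.05. The test was checked on simulated counts. The ratio is log2((Ccr2 + 1) / (Cx3cr1 + 1)). Named were both genes throughout, the 3 genes most and the 1 least like each by Pearson r (1 of these is not reported here), and from pathway and marker lists at most the 3 with the smallest adjusted p per comparison. The members, lists and tests were chosen with earlier results of these data known, and H2-Ab1 and Cxcl9 beside Ccr2, and the non-passing Ccr2 and H2-Ab1 values, were named after their values were seen. Alternatives were other scalings (TMM, panel total, housekeeping without Rpl19, the authors' factors), DESeq2 1.42.0, limma 3.58.1 with pseudocounts of 1 and 20, a filter on low counts (all 57 genes passed), a floor at background, blocks, subsets of lanes and leaving out each mouse. Mouse numbers are shared between groups. Of 38 same-numbered pairs, 17 had deviations that correlated above 0.1 (range -0.644 to 0.574). For day 2 against day 1 in manipulated recipients all 4 pairs did, a pairing taken from these correlations and not from the labels, and elsewhere the numbers were treated as names. Probe, primer and protein sequences were not used here.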

Additional observations from a re-analysis of the deposited data

Results flagged for a closer look

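Non-manipulated day 2 mouse 5 stood apart from the 4 other mice of its group in Ccr2, at 16.86 on the log2 scale of scaled counts. Its gap to the nearest mouse was 0.747 of the range of the group, past Dixon's limit. It was the 1 outlying mouse among 18 sets of a group and a measure, and chance flags about 1 in 20. The same mouse had the highest Cx3cr1 of the series, and its log2 ratio of 5.13 was the lowest of its group.

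The manipulation effect on Cx3cr1 differed between days by the test of the difference itself, at 4.701 on the log2 scale for day 5 minus day 1 (adjusted p = 0.00458, edgeR). In scaled counts, day 1 was lower in all 5 manipulated mice than in all 5 non-manipulated mice. At day 5 manipulated mice 3 and 4 were above, mouse 2 within and mouse 1 below the non-manipulated range.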

How the results depend on the processing

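Of 625 values recomputed, 562 kept their direction and side of the threshold (ratios without a test, their value within 1 SD), among them 253 of 279 that left out 1 mouse. The total includes settings that could hardly differ. The low-count filter removed no gene (20 of 20 kept), and undivided values multiply counts and divisor of a lane alike (20 of 20). With the authors' factors 14 of 21 values were kept, and in mice 3 and 4 alone 16 of 29. Values below are log2 fold changes or log2 ratios. With the authors' factors, Ccr2 between arms was -0.88, -1.09 and -1.29 at days 1, 2 and 5 and Cx3cr1 at day 2 was -1.75, none passing, with Ccr2 day 2 over day 1 at -0.29 in manipulated and -0.083 in non-manipulated recipients and its effect at day 5 minus day 1 at -0.41. Without Rpl19, day 2 gave -1.23 for Ccr2 and -1.85 for Cx3cr1, neither passing, Ccr2 day 2 over day 1 was -0.021 in non-manipulated recipients, and its effect at day 5 minus day 1 was -0.071. TMM turned that effect to -0.12 and Cx3cr1 day 2 over day 1 in non-manipulated recipients to 0.25. DESeq2 called Cx3cr1 day 5 over day 2 in manipulated recipients (2.30).

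In mice 3 and 4 alone, Ccr2 was -0.64 (day 1) and -0.81 (day 2) between arms and Cx3cr1 -1.09 (day 2), none passing, and Cx3cr1 passed at day 5 (1.78). In the same lanes manipulated recipients gave Ccr2 -0.050 for day 2 over day 1, Ccr2 -1.03 for day 5 over day 1 and Cx3cr1 2.47 for day 5 over day 2, the last 2 passing, and the Ccr2 effect at day 5 minus day 1 was -0.54. In the other mice Cx3cr1 was -3.54 at day 2 and -0.93 at day 5 between arms, 1.95 for day 5 over day 1 in manipulated recipients, 0.49 for day 2 over day 1 in non-manipulated ones and 2.58 for the effect at day 5 minus day 1, none passing, and Ccr2 day 5 over day 1 in manipulated recipients was 0.045. The ratio between arms at day 1 was 3.22 in mice 3 and 4 and 0.054 in the other mice, and for day 5 over day 1 in manipulated recipients -5.26 and -1.40. In mice 3 and 4 it was -1.86 for day 2 over day 1 in manipulated recipients, and in non-manipulated ones 1.07 for day 2 and 0.91 for day 5 over day 1. With those lanes as a block, Cx3cr1 day 2 over day 1 in non-manipulated recipients was 0.074. The cause of these differences was not tested, beyond the fewer mice of the subsets.

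With the mouse number as a replicate block, Cx3cr1 between arms at day 2 was -2.23 and no longer passed, and no other call changed. For day 2 over day 1 in manipulated recipients, same-numbered mice correlated, although no label pairs them. The blocked values there were 0.24 for Ccr2 and 1.25 for Cx3cr1.

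Leaving out each mouse in turn gave these ranges where the direction or call of a tested value changed. Ccr2 between arms ran from -1.90 to -1.32 at day 2 and from -1.87 to -1.47 at day 5. Ccr2 day 2 over day 1 ran from -0.064 to 0.62 in manipulated and from -0.13 to 0.37 in non-manipulated recipients, and its effect at day 5 minus day 1 from -0.17 to 0.45. Cx3cr1 between arms at day 2 ran from -2.62 to -1.48, day 5 over day 2 in manipulated recipients from 1.53 to 2.76, and day 2 over day 1 in non-manipulated ones from -0.78 to 0.20. The untested ratio also crossed 0 in non-manipulated recipients, from -0.12 to 0.45 for day 2 over day 1, -0.33 to 0.074 for day 5 over day 2 and -0.24 to 0.33 for day 5 over day 1.

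Limits are the 4 or 5 mice per group, pre-amplification of 100 cells, and multipliers of 13 lanes whose reason is not given. A further limit is Cx3cr1 counts under 10 times background in 8 of 13 manipulated lanes, among them all 5 of day 1. Undivided values, chosen after seeing the data, changed no call.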
